A study of Canis lupus familiaris with 25 samples.

Results

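The genes described here are the canine Notch receptors NOTCH1, NOTCH2, NOTCH3 and NOTCH4, the ligands JAG1, JAG2, DLL1 and DLL4, and the target genes HES1 and HEY1. They were taken by their row names from a table of 24532 genes, in which 9 of the 10 were found. HES1 was not found under its symbol and has no value here. The samples were 25 formalin-fixed paraffin-embedded (FFPE) archival tumors of pet dogs. They comprised 10 hepatoid gland adenomas (HGA), a benign tumor of the modified sebaceous glands around the anus, 11 primary tumors of apocrine gland anal sac adenocarcinoma (AGASAC), a malignancy of the anal sac glands, and 4 metastases in the sublumbal lymph node of the dogs with AGASAC primary tumors 1 to 4. HGA dogs were 8 to 14 years old and comprised 4 males, 1 neutered male, 2 females and 3 neutered females. The dogs with primary AGASAC were 8 to 12.5 years old and comprised 6 neutered males, 2 females and 3 neutered females. Intact males occurred in HGA alone, and the members were therefore also compared with the other 6 HGA. The dogs with metastases were 8 to 10 years old and comprised 2 neutered males, 1 female and 1 neutered female. The labels give no treatment, and the breeds differed.

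Notch signaling passes between touching cells. A ligand of the Jagged or Delta-like family on one cell binds a Notch receptor on its neighbor, the receptor is cut by an ADAM protease and then by the gamma-secretase complex, and the freed intracellular part joins the DNA-binding protein RBPJ and Mastermind proteins in the nucleus, where genes of the HES and HEY families are switched on. In stratified epithelium NOTCH1 and Jagged ligands take part in the step from basal to differentiating cells, whereas NOTCH4 and DLL4 are best known from blood vessel endothelium and NOTCH3 from the mural cells around it.

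Between 1562347 and 6389555 reads were counted on genes per sample (median 2506085 in HGA, 2950459 in primary AGASAC and 3102626 in the metastases). Levels of single samples are given as CPM, the counts scaled to library size after TMM normalization over all 25 samples. The upper limit behind a count of 0 is 3 counts, or 0.539 to 1.88 CPM, for counting error only. RNA quality overlapped, with a DV200 (the share of longer RNA fragments) of 70.5 to 92.7% in HGA and 70.2 to 84.4% in primary AGASAC. The labels were checked against marker genes. Summed markers of stratified and basal epithelium ranged from 3281 to 13452 CPM in HGA and from 1.33 to 69.4 CPM in primary AGASAC. Those of simple glandular epithelium ranged from 418 to 744 CPM in HGA and from 3522 to 6172 CPM in primary AGASAC. HGA 10 stood apart from the other 9 HGA: its summed sebaceous markers were at 3642 CPM, against 41862 to 121640 CPM in the others and 1751 to 5103 CPM in primary AGASAC, and its summed proliferation markers were the highest of the HGA at 241 CPM. It was also the only sample of its RNA extraction batch. Its sequencing file was the 1 HGA file in a naming series with 7 primary AGASAC. The other 9 HGA shared a series with 3 primary AGASAC and the 4 metastases. Tumor type and naming series thus largely coincided among the primary tumors, and what the series stand for is not stated. The sebaceous sum was mostly SCD, with a mean of 76270 CPM in HGA beside 79927 CPM for the whole list. In every HGA, HGA 10 included, CIDEA was at 392 CPM or more and AWAT2 at 9.70 CPM or more. In primary AGASAC these 2 genes were at most at 0.342 and 0.323 CPM. No other marker of the list had every HGA above all primary AGASAC. The lowest HGA was at 325 CPM for FASN and 2240 CPM for SCD, against 233 to 883 and 1143 to 2835 CPM in primary AGASAC. PLIN2, MOGAT1 and ELOVL3 also overlapped, and PLIN5 had counts in primary AGASAC but none in HGA. The epithelial markers of HGA 10 lay within the range of the other HGA, with 4882 CPM for the stratified and 516 CPM for the simple glandular list. The results of HGA are therefore also given without HGA 10.

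**Figure D1:**
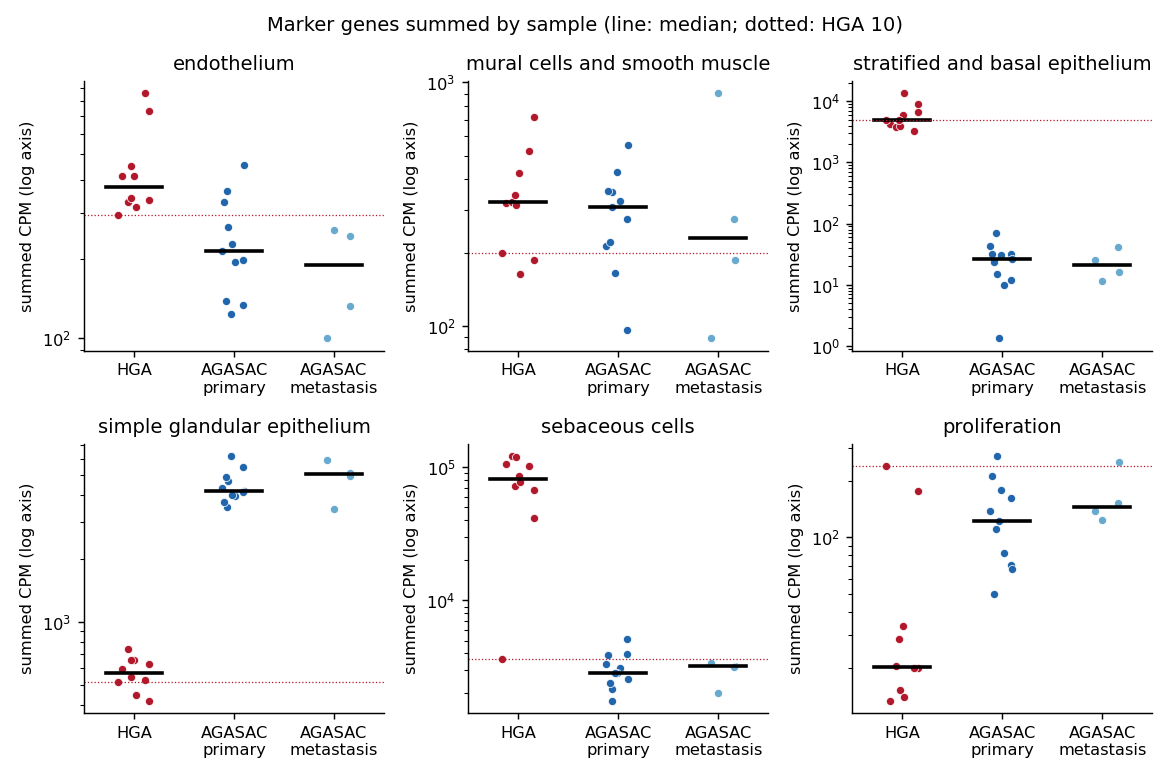
Summed CPM (log axes) of 6 lists of marker genes in each of the 10 HGA, 11 primary AGASAC and 4 metastases, with a point per sample, the group median as a line and the level of HGA 10 dotted. HGA and AGASAC were apart for both epithelial lists. HGA 10 lay within the range of primary AGASAC for the sebaceous sum, at 3642 CPM, a sum made mostly of SCD in HGA.

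Of the receptors, NOTCH1 was higher in HGA than in primary AGASAC, NOTCH2 was detected in every sample without a difference that passed the test, and NOTCH3 and NOTCH4 were close to 0 in nearly all samples. The level of NOTCH1 in HGA was 15.0 CPM in the lowest, 24.5 CPM in the median and 47.1 CPM in the highest tumor. In primary AGASAC it ranged from 0.959 over a median of 10.2 to 18.4 CPM, on 4 to 64 counts per sample. The metastases of dogs 1 to 4 were at 11.2, 8.43, 17.1 and 13.0 CPM. Thus, 9 of 10 HGA lay above the highest primary AGASAC, and only HGA 3 fell within its range. The means were 27.7 ± 10.8 CPM in HGA (SD, n = 10) and 9.75 ± 5.88 CPM in primary AGASAC (SD, n = 11). Compared by edgeR's quasi-likelihood test, the log2 fold change (log2FC) of HGA over primary AGASAC was 1.50 (SE 0.37, Benjamini-Yekutieli adjusted p = 0.0164), and without HGA 10 it was 1.40 (adjusted p = 0.0332).

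The call of NOTCH1 depended on the normalization and the samples. With library size alone, which moved the median log2FC of all genes from −0.03 to −0.33, its log2FC was 1.19 and its adjusted p 0.114, also by edgeR. Within the extraction batches 5, 6 and 8, the ones with at least 2 tumors of each type, NOTCH1 was higher in HGA by log2FC values of 1.15, 1.00 and 1.94, none of which was called. Within the samples whose sequencing files share a naming series (9 HGA, 3 primary AGASAC) the log2FC was 1.67 (edgeR adjusted p = 0.0975). When the 4 HGA of intact males were left out, it was 1.64 and also not called (edgeR adjusted p = 0.0556), with 5 of the other 6 HGA above the highest primary AGASAC.

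NOTCH2 overlapped throughout. Its level was 42.3 to 169 CPM in HGA (median 98.6), 65.3 to 142 CPM in primary AGASAC (median 96.2) and 101, 103, 82.5 and 31.4 CPM in the metastases. The log2FC of HGA over primary AGASAC was −0.03 (SE 0.22, unadjusted edgeR p = 0.874), and its sign changed with the setting, from −0.33 within extraction batch 5 to 0.21 within batch 8, with 0.051 when HGA 10 was left out.

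The other receptors were too low to be tested. NOTCH3 had 18 counts in HGA 9, 4 in HGA 6 and 1 in HGA 5, 3 counts each in AGASAC primary tumors 4 and 6, and 4 in the metastasis of dog 3, and it had no count in the remaining 19 samples. NOTCH4 had 1 count in HGA 7 and 1 in AGASAC primary tumor 11. Hence, of the 2, NOTCH3 in HGA 9 alone exceeded 3 counts by a wide margin, at 7.86 CPM. In the same libraries the summed markers of mural cells and smooth muscle, the cells in which NOTCH3 is best known, ranged from 163 to 721 CPM in HGA and from 96.2 to 553 CPM in primary AGASAC, and those of endothelium from 294 to 856 and from 123 to 455 CPM. All 12 endothelial and all 10 mural markers had counts in both tumor types. A QuantSeq 3′ read is counted only where the annotated 3′ end, or its extension by 2 kilobases, covers it, and whether this holds for NOTCH3 and NOTCH4 was not tested.

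**Figure D2:**
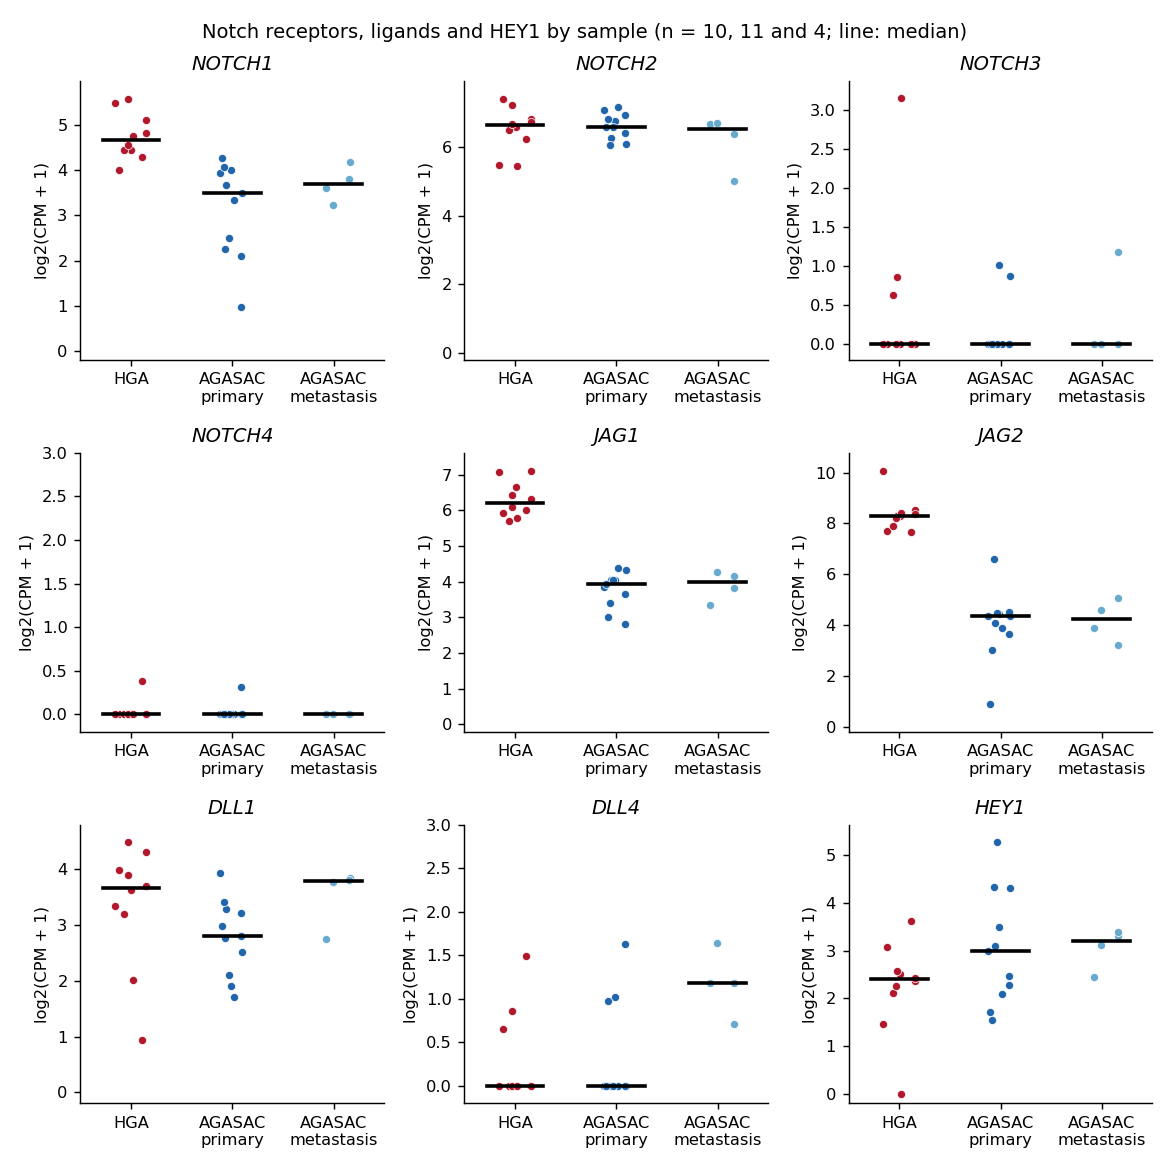
Level of the 9 genes found, as log2(CPM + 1), in 10 HGA, 11 primary AGASAC and 4 metastases, with a point per sample and the group median as a line. JAG1 and JAG2 of HGA lay above all AGASAC samples, NOTCH1 overlapped at its edge, and NOTCH3, NOTCH4 and DLL4 were at 0 in most primary tumors.

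Of the ligands, both Jagged genes were higher in every HGA than in any AGASAC sample, and neither Delta-like gene was called. How many of all tested genes also had groups without overlap was not counted, here and for the genes below. Between HGA and primary AGASAC 25.1% of all genes tested were called. JAG1 encodes a ligand found in many epithelia and vessels. Its level was 51.1 CPM in the lowest, 73.1 CPM in the median and 137 CPM in the highest HGA. In primary AGASAC it was 6.00, 14.4 and 19.8 CPM, and the metastases were at 9.25, 18.4, 13.0 and 16.8 CPM. The groups did not overlap. The mean of 82.9 ± 31.2 CPM in HGA (SD, n = 10) was 6.17 times that of 13.4 ± 4.47 CPM in primary AGASAC (SD, n = 11). The log2FC was 2.62 (SE 0.24, edgeR adjusted p = 4.16e-08), and 2.52 without HGA 10. Within extraction batches 5, 6 and 8 it was 2.30, 2.48 and 2.26, of similar size but not called in these small fits (edgeR adjusted p = 0.0864, 0.123 and 0.134).

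JAG2 encodes the second Jagged ligand and had the largest log2FC of the tested members. It was at 199 CPM in the lowest, 314 CPM in the median and 1079.7 CPM in the highest HGA. The highest value belonged to HGA 10, and the other 9 HGA lay between 199 and 372 CPM. Primary AGASAC ranged from 0.864 over a median of 19.4 to 94.9 CPM, where AGASAC primary tumor 5 held the highest value and the other 10 were at or below 21.8 CPM. The metastases were at 13.7, 22.9, 8.25 and 32.0 CPM. The lowest HGA was thus above the highest AGASAC sample of either kind. The mean of HGA was 369 ± 256 CPM (SD, n = 10) and that of primary AGASAC 22.4 ± 24.9 CPM (SD, n = 11), a ratio of 16.5. The log2FC was 4.04 (SE 0.50, edgeR adjusted p = 5.20e-06). It was 3.69 without HGA 10 and 4.60 without AGASAC primary tumor 5. Within batches 5, 6 and 8 the log2FC was 4.72, 3.94 and 2.69, with a call in batch 6 only (edgeR adjusted p = 0.120, 0.00744 and 0.932), and batch 8 held AGASAC primary tumor 5.

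DLL1, a Delta-like ligand, spread widely within both tumor types. Its level ranged from 0.910 over a median of 11.7 to 21.5 CPM in HGA and from 2.27 over 6.00 to 14.2 CPM in primary AGASAC, on 3 to 105 counts per sample. The log2FC of HGA over primary AGASAC was 0.78 (SE 0.40, unadjusted edgeR p = 0.0655, adjusted p = 1) and did not pass the test. It was 0.81 without HGA 10, and 0.22, 1.49 and 1.03 within batches 5, 6 and 8.

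DLL4 was too low to be tested in the primary tumors. It had 1, 4 and 6 counts in HGA 3, 6 and 7, and 7, 3 and 3 counts in AGASAC primary tumors 1, 6 and 10, with no count in the other 7 HGA and 8 primary AGASAC. All 4 metastases had counts of DLL4, 4, 8, 2 and 4 in dogs 1 to 4, of which the 2 of dog 3 lie under what a count of 0 allows. The highest level of any sample was 2.11 CPM.

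HEY1, a transcriptional repressor and the only one of the 2 target genes found by its symbol, was lower in HGA on average without a call. It was at 0 CPM in the lowest HGA (HGA 9), 4.27 CPM in the median and 11.2 CPM in the highest. Primary AGASAC ranged from 1.94 over 6.95 to 37.6 CPM. AGASAC primary tumor 8 held the highest value, and all 10 HGA fell within or below the range of primary AGASAC. The means were 4.57 ± 3.06 CPM in HGA (SD, n = 10) and 10.6 ± 10.8 CPM in primary AGASAC (SD, n = 11). The log2FC was −1.20 (SE 0.55, unadjusted edgeR p = 0.0379, adjusted p = 0.737). It was −1.11 without HGA 10. It moved to −0.79 without AGASAC primary tumor 8, to −0.11 within batch 8 and to −0.02 within the shared naming series, and it was −1.07 and −1.82 within batches 5 and 6.

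In all, 3 of the 6 tested members were called between HGA and primary AGASAC, and all 3 were higher in HGA. Among the 12070 genes tested, 25.1% were called, 12.6% as higher in HGA and 12.5% as lower. When the HGA of intact males were left out, JAG1 (log2FC 2.82) and JAG2 (log2FC 4.23) were called by edgeR. Genes were called where the adjusted p did not exceed 0.05 and the log2FC was at least 1 or at most −1. The median log2FC of the 6 tested members was 1.14, beside −0.03 over all genes tested. With library size alone 1053 genes were called higher and 2156 lower in HGA, against 1523 and 1509 with TMM, and the members called were then 2, JAG1 and JAG2. DESeq2 called the same number of members, 3, as edgeR. In bulk tissue, fewer cells of a type and less RNA per cell cannot be told apart.

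Marker lists of several cell types also differed between HGA and primary AGASAC. Of 8 stratified and basal epithelial markers, 6 were called higher in HGA and the other 2 were not tested. All 5 simple glandular markers were called lower. Of 12 endothelial markers, 4 were called higher in HGA and none lower, and TEK and ROBO4 were not tested. ESAM alone of those tested went the other way, without a call (log2FC −1.86, edgeR adjusted p = 0.212). The sum of the 12 had a median of 376 CPM in HGA and 214 CPM in primary AGASAC. Of 8 sebaceous markers, 4 were called higher. PLIN2 went the other way without a call (log2FC −0.93, edgeR adjusted p = 0.877). MOGAT1, ELOVL3 and PLIN5 were not tested, and PLIN5 had no count in HGA. The part of these cell types in the difference of JAG1, JAG2 and NOTCH1 between the tumors was not tested.

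**Figure D3:**
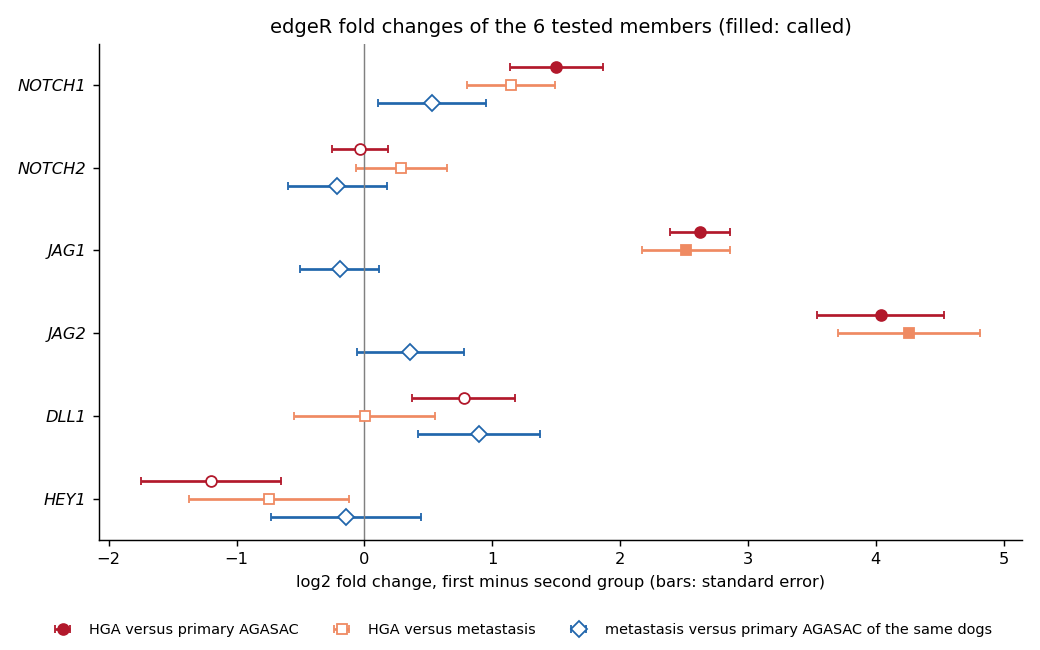
The edgeR log2 fold change (x axis, bars are standard errors) of the 6 tested members in 3 comparisons, with filled symbols for calls. JAG1 and JAG2 lay at 2.62 and 4.04 for HGA versus primary AGASAC and at 2.51 and 4.26 for HGA versus metastasis, and all values of metastasis versus primary AGASAC were open and between −0.21 and 0.90.

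No member was called between the metastases and the primary tumors of the same 4 dogs, where 0% of the 12629 genes tested by edgeR were called and 145 had an unadjusted p under 0.05. None of the 6 tested members was among these 145. The 145 are a share below 0.05, the share that a calibrated test gives without any difference, so this fit was conservative. An absent call here does not show that a member is unchanged. The log2FC, SE and p values of this comparison come from a fit that did not pair the dogs, unless the block is named. DESeq2 called 5 genes in this comparison (MYLPF, MYL1, ACTA1, CKM and SPOCK2) and edgeR with the dog as a block called 1, ACTA1. These are named because they were the only calls. MYLPF, MYL1, ACTA1 and CKM are genes of skeletal muscle and were lower in the metastases, and SPOCK2 was higher. Lymphocytes of the lymph node can be part of a metastasis sample. From the primary tumor to the metastasis of dogs 1 to 4, the summed T cell markers went from 22.4 to 39.2, 18.8 to 46.1, 19.3 to 58.7 and 39.3 to 43.4 CPM. The summed B cell markers went from 42.7 to 45.6, 17.9 to 23.7, 14.6 to 31.1 and 24.9 to 33.9 CPM. Both sums were higher in the metastasis in 4 of 4 dogs, and their part in the values of the members was not tested.

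The values of the dogs are given as primary tumor and then metastasis. JAG1 went from 11.7 to 9.25 CPM in dog 1, from 19.8 to 18.4 in dog 2, from 15.5 to 13.0 in dog 3 and from 19.1 to 16.8 in dog 4. It was lower in the metastasis in 4 of 4 dogs, by small steps of −0.30 to −0.10 on the log2(CPM + 1) scale. Its log2FC of −0.19 (SE 0.31, unadjusted edgeR p = 0.549) did not pass the test. That SE and p hold the spread between dogs, as the fit did not pair them. With the dog as a block JAG1 was not called either. Against all 11 primary AGASAC the sign turned, with a log2FC of 0.10.

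DLL1 had the largest log2FC of the tested members here. It went from 8.37 to 5.74 CPM in dog 1, from 2.27 to 12.7 in dog 2, from 8.78 to 13.3 in dog 3 and from 4.70 to 13.0 in dog 4. It was higher in the metastasis in 3 of 4 dogs and lower in dog 1, with a log2FC of 0.90 (SE 0.48, unadjusted edgeR p = 0.0944, adjusted p = 1). The counts behind these values were 7 to 48 per sample. NOTCH1, JAG2 and HEY1 were likewise higher in the metastasis in 3 of 4 dogs each, with log2FC values of 0.53 (SE 0.42), 0.36 (SE 0.42) and −0.15 (SE 0.59), and NOTCH2 in 2 of 4 (−0.21, SE 0.39). For HEY1 the count of dogs and the sign of the log2FC differed, since dog 4 went from 18.8 to 9.51 CPM.

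**Figure D4:**
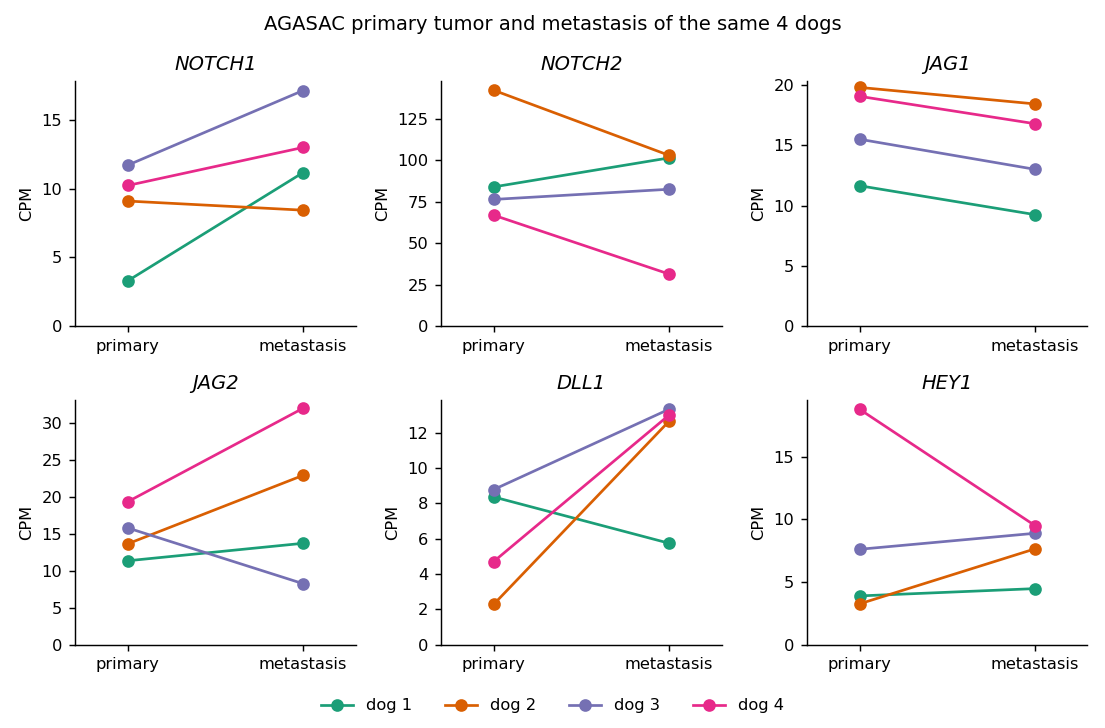
CPM of the 6 tested members in the primary tumor and the metastasis of 4 dogs, with a line per dog. JAG1 of the metastasis lay slightly below that of the primary tumor in all 4 dogs, DLL1 lay above it in dogs 2, 3 and 4 and below it in dog 1, and no gene was called.

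HGA were also compared with the 4 metastases, a comparison that shares its HGA samples with that of the primary tumors. JAG1 and JAG2 were called, with log2FC values of 2.51 (SE 0.35, edgeR adjusted p = 0.000426) and 4.26 (SE 0.56, edgeR adjusted p = 0.000267). Without HGA 10 the values were 2.41 and 3.90. They are 2 of the 6 tested members, beside 16.1% of the 13195 genes tested that were called and 8.40% that were called higher in HGA. The levels of both genes in HGA did not overlap with those of the metastases. The summed stratified and basal markers of the metastases were at 11.3 to 41.9 CPM, with KRT15 and DSG3 at 0, and their part in the result was not tested. NOTCH1 was higher in 9 of 10 HGA than in the highest metastasis, and its log2FC of 1.15 (SE 0.35, edgeR adjusted p = 0.182) was not called. With Benjamini-Hochberg adjustment NOTCH1 passed at an adjusted p of 0.0181 in edgeR. NOTCH2 (0.29, SE 0.36), DLL1 (0.00, SE 0.55) and HEY1 (−0.74, SE 0.62) were not called. With library size alone 788 genes were higher and 1383 lower in HGA, against 1109 and 1015 with TMM, at a median log2FC of all genes of −0.26. The order of the levels was therefore HGA above primary AGASAC and metastases for JAG1 and JAG2. Between the last 2 neither gene was called in the fit that did not pair the dogs. For NOTCH1 HGA was above primary AGASAC, and the metastases did not pass the test against either.

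The further genes of the pathway were taken from a list of 64, of which 62 were found (DLK1 and HES5 were not) and 50 were tested between HGA and primary AGASAC. Of these, 7 were called higher and 9 lower in HGA, beside 12.6% and 12.5% of all genes tested, and 34 were not called. With library size alone the split was 5 higher and 11 lower. Of the 16 calls, 15 remained without HGA 10. The median log2FC of the 50 was −0.18. Calls in both directions occurred among the genes of receptor cleavage, glycosylation, turnover and the nuclear complex.

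DLK2, a Delta-like homolog without the domain by which Delta ligands bind Notch, was the only one of 4 tested ligand-like genes with a call. It ranged from 5.68 over 31.2 to 67.03 CPM in HGA and from 0 to 2.16 CPM in primary AGASAC, where 6 of 11 tumors had no count. The groups did not overlap. The log2FC was 6.25 (SE 0.62, edgeR adjusted p = 1.67e-07). DLK2 passed the filter on low counts through HGA alone, as primary AGASAC held 14 counts in all. Its separation and p value thus partly follow from how it entered the test, and the size of its log2FC rests on few counts. HGA 10 was the lowest HGA for DLK2. DLL3, a Delta-like gene that acts mainly inside the cell, had at most 7 counts in any sample and was not tested.

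In the cleavage group, 2 of 8 tested genes were higher and 1 was lower in HGA. PSEN2, which encodes a catalytic subunit of gamma-secretase, was lower in HGA. It ranged from 1.68 over 10.2 to 20.1 CPM in HGA and from 13.9 over 22.5 to 32.2 CPM in primary AGASAC (log2FC −1.16, SE 0.28, edgeR adjusted p = 0.0176). ADAM10, the protease of the first cut, was higher in HGA, at 10.0 to 52.8 CPM against 10.2 to 23.3 CPM (log2FC 1.18, SE 0.25, edgeR adjusted p = 0.00377), with 8 of 10 HGA above the highest primary AGASAC.

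In the glycosylation group, 1 of 7 tested genes was higher and 1 was lower. LFNG, 1 of the Fringe enzymes that add sugars to Notch and thereby shift its response between Jagged and Delta ligands, was lower in HGA. It ranged from 13.0 over 23.4 to 47.7 CPM in HGA, from 31.7 over 105 to 180.3 CPM in primary AGASAC and from 81.8 to 119 CPM in the metastases (log2FC −2.04, SE 0.29, edgeR adjusted p = 3.76e-05). LFNG of HGA and of the metastases did not overlap (log2FC −2.06, SE 0.29, edgeR adjusted p = 0.000498). RFNG, another Fringe gene, differed by less than the spread (log2FC −0.20, SE 0.16), and MFNG had too few counts for the test, at medians of 3.63 and 3.59 CPM. GXYLT2, a xylosyltransferase, was higher in HGA (log2FC 2.53, SE 0.43, edgeR adjusted p = 0.000408), with HGA 10 at 1.31 CPM and the other HGA at 6.04 to 35.7 CPM.

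In the group of ligand uptake and receptor turnover, 1 of 12 tested genes was higher and 1 was lower. FBXW7, a ubiquitin ligase subunit that marks the active Notch fragment for breakdown, ranged from 116 over 186 to 377 CPM in HGA and from 24.8 over 46.3 to 70.2 CPM in primary AGASAC, without overlap (log2FC 2.17, SE 0.23, edgeR adjusted p = 4.54e-07). NEURL1, a Neuralized ubiquitin ligase that promotes the uptake of ligands, had the largest difference of the list. It was at 0 to 2.18 CPM in HGA, on at most 5 counts, and at 8.59 to 311 CPM in primary AGASAC (log2FC −8.07, SE 0.75, edgeR adjusted p = 6.62e-08). NEURL1 passed the filter on low counts through primary AGASAC alone. Its p value thus partly follows from how it entered the test, and the size of its log2FC rests on few counts in HGA.

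In the nuclear group, 2 of 17 tested genes were higher and 6 were lower in HGA. KAT2B, a histone acetyltransferase, was at 26.2 to 144 CPM in HGA and 3.60 to 16.2 CPM in primary AGASAC (log2FC 3.20, SE 0.31, edgeR adjusted p = 1.14e-07), and TLE3, a Groucho corepressor, was higher with a log2FC of 1.09 (SE 0.21, edgeR adjusted p = 0.00144). SAP30, of the Sin3 corepressor complex, was at 1.098 to 15.3 CPM in HGA and 58.4 to 206 CPM in primary AGASAC (log2FC −4.68, SE 0.39, edgeR adjusted p = 1.19e-08). MAML3, a Mastermind coactivator, was at 0 to 10.7 CPM against 15.3 to 83.4 CPM (log2FC −3.27, SE 0.38, edgeR adjusted p = 2.32e-06). Lower calls were also made for MAML2, TLE2 and HDAC1, with log2FC values from −2.51 to −1.29. RBPJ, the DNA-binding protein of the pathway, was at medians of 79.5 CPM in HGA and 102 CPM in primary AGASAC and was not called (log2FC −0.41, SE 0.15, edgeR adjusted p = 0.234).

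**Figure D5:**
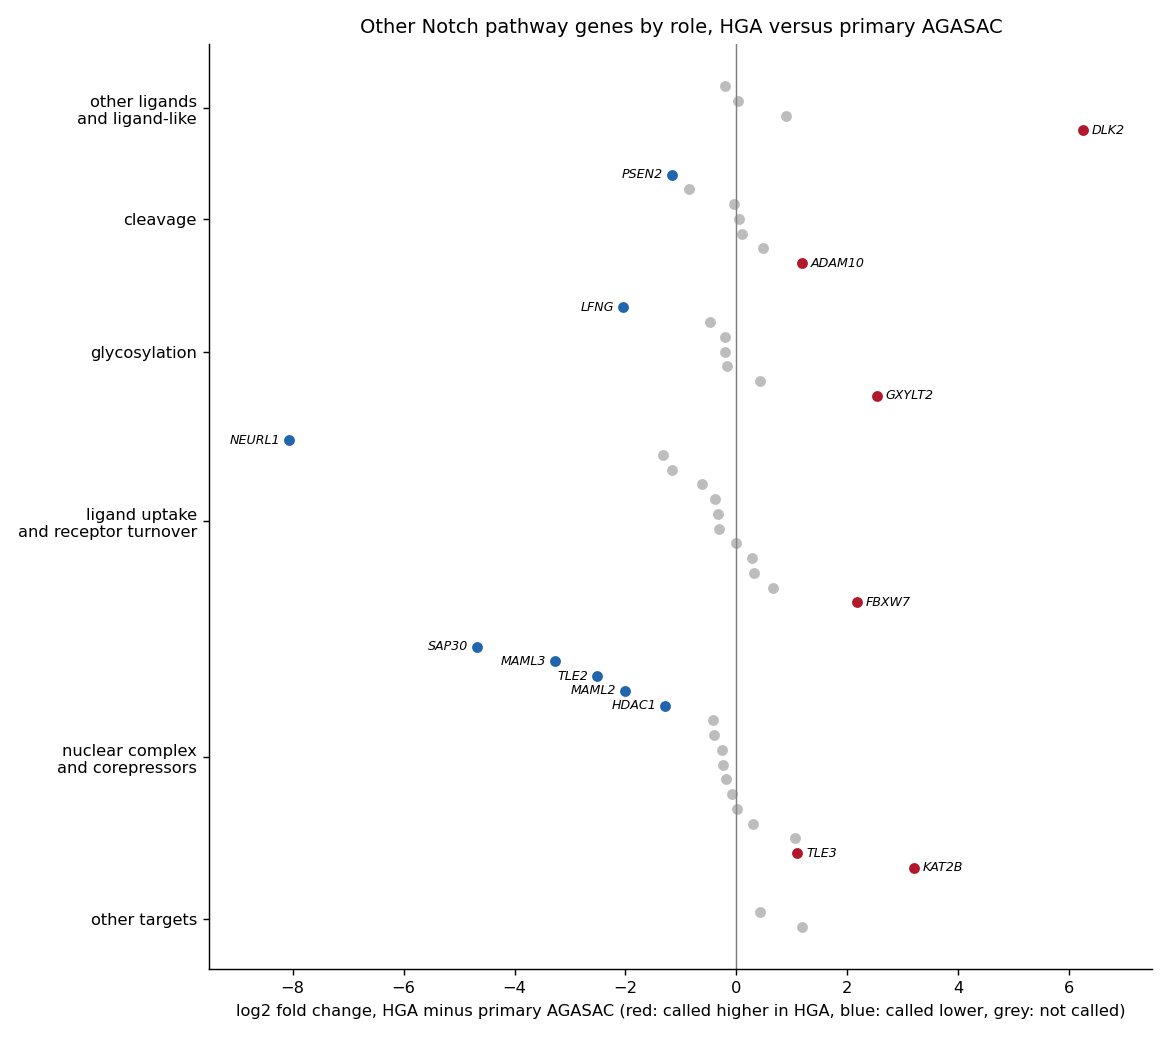
The edgeR log2 fold change of HGA over primary AGASAC (x axis) for 48 other tested Notch pathway genes, grouped by role, with a point per gene and names at the 14 calls among them. The calls lay on both sides of 0, from NEURL1 at −8.07 to DLK2 at 6.25, with 5 of the 8 lower calls shown in the nuclear group.

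The further target genes did not move together. HEYL, a HEY family repressor, was not called (log2FC 1.19, SE 0.53, edgeR adjusted p = 0.706). Its level was 260.2 CPM in HGA 10 and 7.69 to 52.7 CPM in the other 9 HGA, against 6.95 to 57.5 CPM in primary AGASAC, and its log2FC without HGA 10 was 0.17. NRARP, which dampens Notch signaling, overlapped at medians of 19.6 and 19.5 CPM (log2FC 0.43, SE 0.40, not called). HES4, a HES family repressor, had too few counts to be tested between the primary tumors. It ranged from 1.31 over 7.01 to 19.4 CPM in HGA, on 3 to 85 counts, and from 0 to 1.38 CPM in primary AGASAC, on 0 to 4 counts, and the metastases had at most 1 count. Thus, 9 of 10 HGA lay above the highest primary AGASAC, with HGA 10 the exception. Without the filter its log2FC was 3.38 (SE 0.52, edgeR adjusted p = 0.000142). HEY2 had 24 counts in HGA 4 and at most 11 elsewhere, with a median of 1.12 CPM in HGA and 0 CPM in primary AGASAC. Between metastases and primary tumors 0 of 52 tested genes of the list were called by edgeR, as were 0% of all genes. Between HGA and metastases 6 of 53 were higher and 8 lower, beside 16.1% of all genes tested that were called.

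Whether the members followed the amount of vessel RNA was examined within each tumor type, as the endothelial sum differed between the types. In primary AGASAC this sum held ESAM at 2.39 to 266 CPM, beside 123 to 455 CPM for the whole sum. ESAM thus weighed heavily in some of these tumors, and no relation was run without it. The log2(CPM + 1) of each of 9 members was compared with the summed endothelial and mural markers over the 10 HGA and the 11 primary AGASAC, 36 relations in all. After Benjamini-Hochberg adjustment 0 of 36 passed 0.05 in permutation tests, and 1 by Pearson's r and 2 by Spearman's rho had an unadjusted permutation p under 0.05. The second by rho was NOTCH3 with the mural sum in primary AGASAC, where only 2 tumors had counts of the gene. NOTCH4 had a count in 1 HGA and 1 primary AGASAC, so its relations could not pass at these sample sizes. NOTCH3 and DLL4 had no count in most tumors, so their relations also say little. HEY1 had the smallest p values of the tested members, both in HGA. With the mural sum its r was 0.67 (permutation p = 0.0313, adjusted 0.557) and its rho 0.53 (permutation p = 0.122, adjusted 0.646), and r was 0.70 without the 2 samples farthest from the median. With the endothelial sum r was 0.60 (permutation p = 0.0673, adjusted 0.557) and rho 0.72 (permutation p = 0.0236, adjusted 0.646), and r was 0.58 without 2 samples. For JAG2 and the endothelial sum r was −0.47 in HGA (permutation p = 0.186, adjusted 0.558) and 0.11 in primary AGASAC (permutation p = 0.768, adjusted 0.868), and no relation of JAG1 or NOTCH1 passed either. The extraction batches held at most 3 samples of a type, too few for these relations.

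The genes with the pattern most like each tested member were sought over the 21 primary tumors, by Pearson's r of log2(CPM + 1) after the mean of each tumor type was removed, among 10807 tested genes with a symbol. The values describe these libraries, which share their depth and RNA quality with every gene, and carry no test. NOTCH1 was most like CPT1A (r = 0.77), GCGR (0.74) and PLXNA1 (0.73). For NOTCH2 these were TMEM187 (0.79), SATB1 (0.77) and GNAI3 (0.76). SHB (0.78), SESN1 (0.78) and MARCKS (0.76) came first for JAG1, and CHD7 (0.75), GGA1 (0.75) and STK11 (0.73) for JAG2. DLL1 had ITPRIPL1 (0.73), TFRC (0.73) and MCM6 (0.70), and HEY1 had MEOX2 (0.78), CACNB2 (0.77) and F2R (0.77). No gene was shared between these 6 lists. The highest r of each member lay between 0.73 and 0.79. Spearman's rho of the same values was lowest for JAG2, at 0.43 with CHD7 and 0.50 with GGA1, beside 0.69 with STK11. Within primary AGASAC alone, r of NOTCH2 was 0.49 with TMEM187, 0.91 with SATB1 and 0.35 with GNAI3. GCGR had no count in any HGA, so its likeness to NOTCH1 rests on primary AGASAC alone.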

How the data were processed

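FFPE tumor RNA of 25 samples was sequenced with QuantSeq 3′. The authors trimmed reads with cutadapt, aligned them to CanFam3.1 with STAR and deposited whole read counts per gene from featureCounts, in 2 rounds of which the second extended the 3′ ends by 2 kb. Reads mapping to several places were split evenly, so near-identical genes share reads, and use of strand in counting is not given in the sources used here. The deposited size-factor-scaled signal, log2 fold changes and p-values of the authors' own comparison, made with DESeq2, were not used, and 0 per-sample count columns were left unused.

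Counts were analysed with edgeR 4.0.16 in R 4.3.3 (filterByExpr with minimum count 10 and minimum total 15, TMM, quasi-likelihood test, Benjamini-Yekutieli adjustment over all genes tested). Fits held the 2 groups compared without covariates, and the SE is the log2FC over the root of F. Permutation tests were two-sided with 100000 resamples. The alternatives were DESeq2 1.42.0, other normalizations, filters, samples and adjustment, DV200, extraction batch, the replicate block and each sample left out. Code was tested on simulated data. A chi-square test found 0 duplicate libraries. Metastases were matched with the primary tumor by the dog named in the labels, and both deviated together (correlations 0.325 to 0.677 in 4 of 4 dogs). The main fit of metastasis and primary tumor left this pairing out, and the replicate block used it. Extraction batches and file naming come from the study's sample list.

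Members and lists were chosen with earlier results of these data known. Named are all members, per pathway list at most 2 called genes in each direction by log2FC, 9 pathway genes named in any case (DLL3, LFNG, MFNG, RFNG, RBPJ, NRARP, HES4, HEY2, HEYL), and 3 like genes per tested member. MAML2, TLE2, HDAC1 and the genes called between metastasis and primary tumor were named after their values were seen. Of the called pathway genes, 14 are named, and the others are not reported here. TLE4 was matched through its gene number. Coordinates and sequences are not given, since the annotation used here is of another assembly, UU_Cfam_GSD_1.0.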

Additional observations from a re-analysis of the deposited data

Results flagged for a closer look

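In 16 pairs of a gene and a group of 4 to 10 samples, Dixon's criterion marked a sample that stood apart from the others in 5. Chance marks about 1 pair in 20 for normally distributed values, and this rate need not hold for CPM. It does not apply to NOTCH3 and DLL4, which had no count in most samples and account for 3 of the 5. JAG2 in HGA 10 was at 1079.7 CPM on 2473 counts, and the other 9 HGA were at 199 to 372 CPM. The same library had the lowest sebaceous marker sum of the HGA and the highest HEYL. NOTCH3 in HGA 9 was at 7.86 CPM on 18 counts, with the other HGA at 0 to 0.818 CPM. NOTCH3 in the metastasis of dog 3 was at 1.27 CPM on 4 counts, while the other metastases had none, and DLL4 in HGA 7 was at 1.82 CPM on 6 counts, with the others at 0 to 0.818 CPM. DLL1 in the metastasis of dog 1 was at 5.74 CPM on 18 counts, below the 12.7 to 13.3 CPM of the other metastases. The causes were not tested.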

How the results depend on the processing

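Between HGA and primary AGASAC, 3 members were called in every fit that left out 1 sample (JAG1 2.52 to 2.69, JAG2 3.69 to 4.60, NOTCH1 1.37 to 1.63), and 2828 to 3373 of all genes and 15 to 17 pathway genes were called. Within extraction batches 5, 6 and 8, with 2 or 3 samples a group, 0, 1 and 0 members and 262, 637 and 338 genes of all were called. Between metastasis and primary tumor all fits that left out 1 sample gave 0 calls, DESeq2 called 5 genes and the replicate block, which pairs the dogs, 1. Between HGA and metastasis, fits that left out 1 sample called 2 members and 1543 to 2588 genes, Benjamini-Hochberg adjustment 3536 genes and the replicate block 762. HGA and AGASAC samples share only a number (correlations of deviations −0.0465 to 0.0285 with primary AGASAC), and this block changed no call of a member. The smallest log2FC values changed sign, none of them called. NOTCH2 of HGA over primary AGASAC became 0.059 with all 15 AGASAC samples, 0.085 with batch as a covariate, 0.18 and 0.21 within batches 6 and 8, 0.036 within the naming series, 0.029 with the HGA of intact males left out (chosen after seeing the data) and −0.15 to 0.055 with 1 sample left out. Between metastasis and primary tumor, JAG1 became 0.10 and JAG2 −0.22 both in the model over all 25 samples and against all 11 primary AGASAC, HEY1 became 0.11 with the block, and with 1 sample left out JAG2 ranged from −0.0038 to 0.61, HEY1 from −0.41 to 0.64 and NOTCH2 from −0.38 to 0.080. DLL1 of HGA over metastasis became −0.038 with DESeq2, −0.037 with RLE, −0.27 with library size alone, −0.016 without a filter and −0.12 with DV200, and −0.22 to 0.15 with 1 sample left out. The causes were not tested. Relations with vessel markers gave 0 of 36 under every alternative run, where those of NOTCH4 could not pass. Genes under about 10 counts per sample, NOTCH3, NOTCH4 and DLL4 among them, were below what this depth could compare.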
